A study of Mus musculus with 18 samples.

Results

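How far the effect of losing Pitx1 on hindlimb gene expression changed between embryonic stages E11.5 and E12.5 was measured in 12 of the 18 RNA sequencing libraries of a mouse series. The libraries form 4 groups of 3, all of C57BL/6 hindlimb tissue: Pitx1 knockout at E12.5, wild type at E12.5, Pitx1 knockout at E11.5 and wild type at E11.5. The libraries were chosen by their labelled stage and genotype, and the 6 libraries of E9.5 entered only an alternative fit. The labels name the genotype as a knockout of Pitx1 and give neither the allele nor the number of embryos behind a library, so p-values measure the spread between these libraries, which may be technical. For each of 15324 genes tested, the quantity of interest was the knockout effect at E12.5 (log2 knockout over wild type) minus the knockout effect at E11.5, called the difference throughout. A positive difference means that the knockout stood higher relative to wild type at E12.5 than it did at E11.5.

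PITX1 is a paired-type homeodomain transcription factor that is made in the hindlimb bud and not in the forelimb bud, and it acts upstream of the T-box gene Tbx4 in giving the hindlimb its shape. Between these stages the limb mesenchyme condenses into cartilage under SOX9, and muscle progenitors that have migrated in from the somites switch on MYOD1 and myogenin and begin to assemble sarcomeres. Mice that lack Pitx1 are known for short hindlimbs with altered skeletal and muscle pattern.

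Among the 15324 genes, Pgm5 was the only gene that passed the adjusted threshold for the difference in the edgeR test, and its difference was positive. A gene that did not pass was not shown to be unchanged. The call of Pgm5 was lost in 8 of 12 fits that each left out a library. Of the other tools, limma-voom did not call Pgm5, while DESeq2 called it among 121 genes. Muscle genes as a group also had mostly positive differences and mitosis genes mostly negative ones, but 0 of them passed the adjusted threshold. Pgm5 encodes an enzymatically inactive relative of phosphoglucomutase that sits at adherens-type junctions of muscle and binds dystrophin and utrophin. The 250 bases upstream of its start are shown with those of 3 muscle genes described further on. These 4 were chosen from named genes with a muscle or cartilage role and a RefSeq promoter. All 4 were lower in every knockout library at E11.5 and overlapped between the genotypes at E12.5. The share of all genes with that pattern was not counted, so the pattern is a description only. The sequences are RefSeq promoters of build GRCm38.p6, 5′ to 3′ on the strand of the gene, at chr19:24861843-24862092 on the minus strand for Pgm5, chr19:34255374-34255623 on the minus strand for Acta2, chr1:134289754-134290003 on the plus strand for Myog and chr2:114052876-114053125 on the minus strand for Actc1. Capitals mark E-boxes (CANNTG, the letters bound by MYOD1, myogenin and other basic helix-loop-helix factors), searched on both strands, and in Actc1, which holds no E-box, the CArG box.
Pgm5: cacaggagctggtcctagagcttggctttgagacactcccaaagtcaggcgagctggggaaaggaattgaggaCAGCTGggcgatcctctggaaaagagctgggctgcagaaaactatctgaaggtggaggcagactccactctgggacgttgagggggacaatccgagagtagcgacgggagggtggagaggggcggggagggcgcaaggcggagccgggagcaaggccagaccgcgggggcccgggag
Acta2: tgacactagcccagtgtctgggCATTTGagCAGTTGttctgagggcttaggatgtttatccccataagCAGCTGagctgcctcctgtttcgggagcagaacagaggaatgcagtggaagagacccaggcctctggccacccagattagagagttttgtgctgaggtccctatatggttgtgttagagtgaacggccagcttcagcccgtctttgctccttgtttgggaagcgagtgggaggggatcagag
Myog: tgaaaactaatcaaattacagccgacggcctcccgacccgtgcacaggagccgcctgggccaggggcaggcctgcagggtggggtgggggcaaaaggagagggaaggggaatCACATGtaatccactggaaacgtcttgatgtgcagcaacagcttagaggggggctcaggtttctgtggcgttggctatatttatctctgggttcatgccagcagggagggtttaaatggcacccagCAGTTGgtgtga
Actc1: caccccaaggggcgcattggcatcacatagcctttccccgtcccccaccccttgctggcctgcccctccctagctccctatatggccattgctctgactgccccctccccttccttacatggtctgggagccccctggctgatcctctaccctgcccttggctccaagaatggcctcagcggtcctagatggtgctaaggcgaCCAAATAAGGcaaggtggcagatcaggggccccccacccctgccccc
Pgm5 held 1 E-box, Acta2 held 3 and Myog held 2. An E-box was present in 66.2% of all 32851 promoters of the table over the same 250 bases, so its presence is common. Myog also held TAATCC, the bicoid-type letters that PITX proteins bind, which 6.25% of all promoters held on either strand. The CArG box of Actc1, the site letters of serum response factor, was present in 1.47% of all promoters. Near matches of the CArG box, such as ccctatatgg in Acta2 and in Actc1, were not counted. The count of 0 in Acta2 therefore does not show that its window lacks such a site. Over the fixed lists, 10 of 18 myogenic regulators and 35 of 41 sarcomere genes with a promoter in the table held an E-box. The bicoid-type letters were held by 1 of 18 (5.56%) and 3 of 41 (7.32%), near the 6.25% of all promoters. The CArG box was held by 0 of 18 and 5 of 41 (12.2%). A match of letters is a description of the window and not a measured site.

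The labels were checked in every library before the comparison. Pitx1 RNA measured 25.4, 31.3 and 27.1 CPM (counts scaled to library size, with the trimmed mean of M-values, TMM) in knockout E12.5 libraries, against 267, 263 and 104 CPM in wild-type E12.5 libraries. At E11.5 it measured 57.6, 42.8 and 49.3 CPM in knockout libraries, against 339, 275 and 267 CPM in wild-type libraries. Every knockout library lay below every wild-type library of its stage, and the wild-type E12.5 replicate 3 stood apart from the other two of its group. The difference of Pitx1 itself was -0.36 ± 0.44 (SE), with a 95% interval of -1.34 to 0.62 and an adjusted p of 0.809 (edgeR quasi-likelihood test with Benjamini-Hochberg adjustment, as for all adjusted p-values below unless another tool is named). Without that wild-type library it was -0.69. The limb mesenchyme markers Prrx1, Prrx2, Twist1 and Tbx4 were present in all 12 libraries, and Tbx5, the T-box gene of the forelimb, was low, at 2.67, 2.704 and 4.45 CPM in knockout E12.5 libraries, 5.46, 3.78 and 1.99 CPM in wild-type E12.5 libraries, 1.196, 1.77 and 0.467 CPM in knockout E11.5 libraries and 2.01, 5.45 and 3.55 CPM in wild-type E11.5 libraries. Depth over the genes kept was 22361170 to 29993151 fragments in knockout E12.5 libraries, 24290472 to 39397235 in wild-type E12.5 libraries, 44986881 to 60672151 in knockout E11.5 libraries and 38770845 to 40973174 in wild-type E11.5 libraries. At E11.5 depth therefore moved with genotype. Depth also moved with stage. The median was 60006002 fragments at E11.5 and 22645300 at E12.5 in knockout libraries, and 39136635 and 26479061 in wild-type libraries. The part of depth in the results was not tested.

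Pgm5 measured 79.9, 98.6 and 91.9 CPM in knockout E12.5 libraries, against 76.6, 88.7 and 83.4 CPM in wild-type E12.5 libraries. At E11.5 it measured 15.3, 20.2 and 17.4 CPM in knockout libraries, against 47.1, 47.5 and 35.6 CPM in wild-type libraries. The genotypes overlapped at E12.5, while at E11.5 each knockout library was below each wild-type library. The knockout effect was 0.12 ± 0.12 at E12.5 (SE, adjusted p = 0.713) and -1.30 ± 0.13 at E11.5 (adjusted p = 0.00118). The difference was 1.42 ± 0.18 (95% interval 1.04 to 1.81, edgeR adjusted p = 0.0357). Pgm5 rose from stage to stage in both genotypes, with a log2 change of 2.36 ± 0.13 in the knockout (adjusted p = 2.32e-06) and 0.93 ± 0.13 in the wild type (adjusted p = 0.000501). In whole tissue, fewer cells of a type and less RNA per cell cannot be told apart, here and for every gene below.

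**Figure D1:**
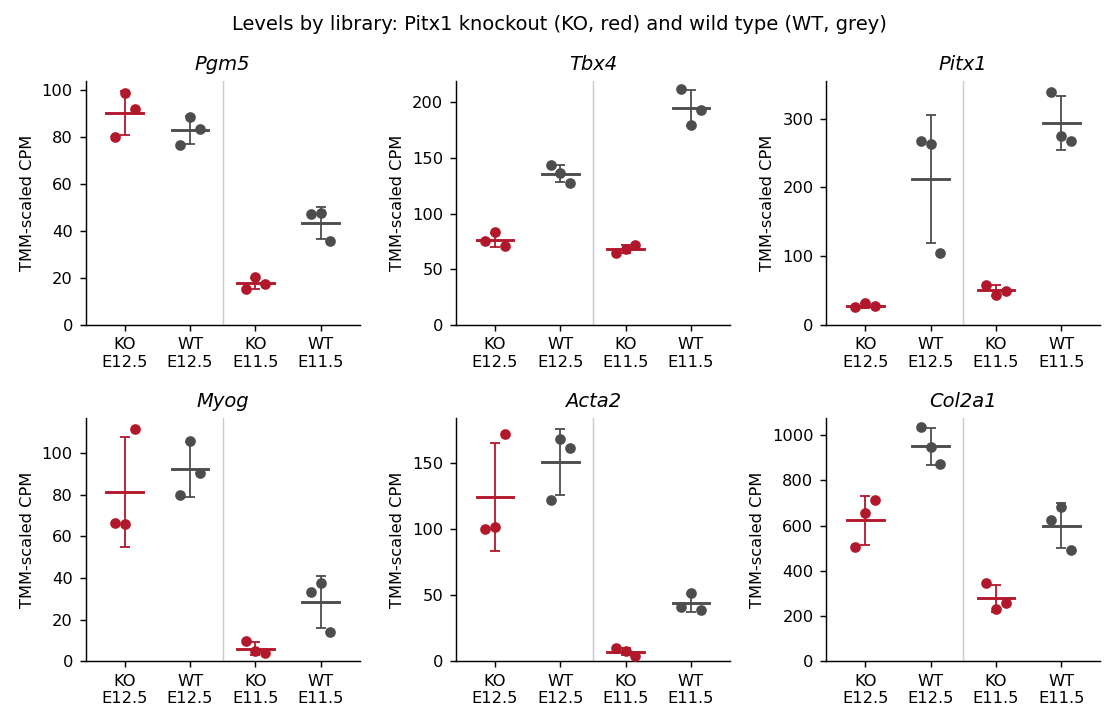
Levels of 6 genes in each library. The vertical axis is CPM scaled by TMM, points are libraries (knockout red, wild type grey), and bars are the mean and SD of 3 libraries. Pgm5, Myog and Acta2 overlap between genotypes at E12.5 and do not overlap at E11.5, while Tbx4, Pitx1 and Col2a1 are lower in every knockout library at both stages.

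The share of genes called was 0.00653% for the difference, 1 gene higher and 0 lower. At an unadjusted p under 0.05, 789 genes were higher (5.15%) and 796 lower (5.19%), 1585 in all (10.3%). DESeq2 on the same genes called 66 genes higher (0.431%) and 55 lower (0.359%), Pgm5 among them at an adjusted p of 7.25e-10, whereas limma-voom called 0, with Pgm5 at 0.0566 and 1524 genes at an unadjusted p under 0.05. The call of Pgm5 was not firm: of 12 fits that each left out 1 library, 4 called it and 8 did not. The adjusted p was 0.153 without knockout E12.5 replicate 2, 0.208 without knockout E12.5 replicate 3, 0.0775, 0.0508 and 0.0769 without wild-type E12.5 replicates 1, 2 and 3, 0.0993 without knockout E11.5 replicate 3, and 0.218 and 0.159 without wild-type E11.5 replicates 1 and 2. The size of the difference stayed between 1.33 and 1.55 in those 12 fits.

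The 2 effects behind the difference were of unlike extent. The knockout effect passed the threshold in 14 genes at E12.5 (0.0914%), of which 5 were higher (0.0326%) and 9 lower (0.0587%). At E11.5 it passed in 1027 genes (6.7%), of which 563 were higher (3.67%) and 464 lower (3.03%). With upper-quartile scaling the split at E11.5 was 386 higher and 551 lower. These counts depended on single libraries. Without wild-type E12.5 replicate 1 there were 11 higher and 51 lower genes at E12.5, without knockout E12.5 replicate 1, 2 or 3 there were 1, 0 and 1 higher and 2, 1 and 17 lower, without wild-type E12.5 replicates 2 and 3 there were 0 and 2 higher, without knockout E11.5 replicates 1, 2 and 3 there were 3, 3 and 1 higher, without knockout E11.5 replicate 3 there were 5 lower, and without wild-type E11.5 replicate 2 there were 14 lower. At E11.5 there were 45, 140 and 846 higher and 50, 135 and 742 lower genes without wild-type E11.5 replicates 1, 2 and 3, 112 and 46 higher and 93 and 40 lower without knockout E11.5 replicates 2 and 3, 699 lower without knockout E11.5 replicate 1, and 338 higher and 290 lower without knockout E12.5 replicate 2. Unequal counts in 2 stages are no test of the difference, which is the single-gene result above. Depth was also greater at E11.5 by group median, and its part in these counts was not tested. The median absolute effect over 11428 genes above 4 CPM was 0.098 at E12.5 and 0.143 at E11.5 on the log2 scale. Both effects were called in 6 genes. Of the 1027 genes called at E11.5, 898 had the same sign at E12.5 and 1004 had a smaller absolute effect at E12.5, which is a description only, since the E11.5 values chose them.

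**Figure D2:**
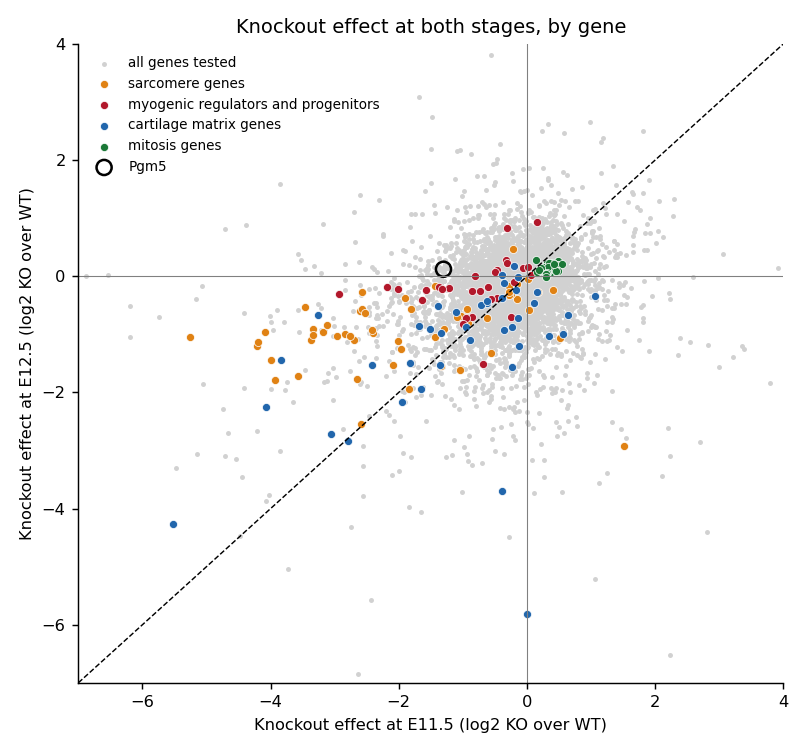
Knockout effect at E12.5 (vertical, log2 knockout over wild type) against that at E11.5 (horizontal) for the genes tested, with 18 genes outside the axes. Each point is a gene, the dashed line marks equal effects, and points above it have a positive difference. Most sarcomere and myogenic genes lie left of zero at E11.5 and above the dashed line, most mitosis genes lie right of zero and below it, and the ring marks Pgm5.

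The next genes in rank did not pass the threshold. B3galt5, a galactosyltransferase of glycan chains, Basp1, a membrane-bound growth-cone protein, and Egflam, the dystroglycan-binding matrix protein pikachurin, each had an adjusted p of 0.0859. These 3 genes, and Smpd3, Alpk2, Mad2l2, Hapln1, Met and Rpl26, were chosen after their values were seen. Egflam measured 43.3, 52.8 and 51.5 CPM in knockout E12.5 libraries, against 45.9, 43.2 and 47.4 CPM in wild-type E12.5 libraries, and 28.9, 26.5 and 23.03 CPM in knockout E11.5 libraries, against 42.9, 47.99 and 43.4 CPM in wild-type E11.5 libraries. As with Pgm5, the genotypes overlapped at E12.5 and the knockout was below the wild type without overlap at E11.5, with a difference of 0.89 ± 0.14. Basp1 measured 186, 176 and 173 CPM in knockout E12.5 libraries, against 197, 200.3 and 188 CPM in wild-type E12.5 libraries, and 244, 278 and 244 CPM in knockout E11.5 libraries, against 185, 182 and 193 CPM in wild-type E11.5 libraries. Its knockout libraries lay below the wild type at E12.5 and above it at E11.5, with a difference of -0.58 ± 0.09. B3galt5 was low, at 2.76, 2.77 and 3.72 CPM in knockout E12.5 libraries, 0.964, 1.47 and 0.664 CPM in wild-type E12.5 libraries, 0.188, 0.0527 and 0.0234 CPM in knockout E11.5 libraries and 1.36, 2.22 and 0.574 CPM in wild-type E11.5 libraries. The knockout was above the wild type at E12.5 and below it at E11.5, with no overlap at either stage, and the difference was 5.45 ± 0.83.

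Alpk2, an alpha-type kinase studied in heart muscle, had a difference of 2.46 ± 0.47 (adjusted p = 0.205), with an effect of -0.14 at E12.5 and -2.60 at E11.5. Smpd3, a sphingomyelinase needed for the mineralization of skeletal tissue, had the opposite sign. It measured 0.569, 0.847 and 0.562 CPM in knockout E12.5 libraries, against 1.61, 4.84 and 4.89 CPM in wild-type E12.5 libraries, and 1.49, 2.28 and 2.24 CPM in knockout E11.5 libraries, against 1.57, 1.24 and 1.59 CPM in wild-type E11.5 libraries. Smpd3 was thus lower in the knockout at E12.5 (-2.51 ± 0.41, adjusted p = 0.0434) and overlapped at E11.5, and its difference was -2.95 ± 0.55 (adjusted p = 0.205). Mad2l2, a subunit of the translesion polymerase zeta, was higher in every knockout library at E12.5 and lower in every one at E11.5, with a difference of 0.66 ± 0.12 (adjusted p = 0.205). Rpl26 was at 0 in all knockout E12.5 libraries and at most 1.78 CPM elsewhere. It has near-identical copies in the genome, among which the assignment of fragments is not given, so its level is uncertain and no fold is given.

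Tbx4, the T-box gene downstream of PITX1 in the hindlimb, did not pass the threshold for the difference either. It measured 75.1, 83.01 and 70.4 CPM in knockout E12.5 libraries, against 143, 137 and 128 CPM in wild-type E12.5 libraries, and 64.3, 67.95 and 71.4 CPM in knockout E11.5 libraries, against 212, 180.0 and 193 CPM in wild-type E11.5 libraries. Knockout libraries lay below the wild type at both stages without overlap. Tbx4 was lower in the knockout at E12.5 (-0.83 ± 0.081, adjusted p = 0.00151) and at E11.5 (-1.52 ± 0.081, adjusted p = 9.04e-07), and the difference of 0.69 ± 0.11 had an adjusted p of 0.108 (95% interval 0.44 to 0.93). Between the stages Tbx4 fell in the wild type, by 0.52 on the log2 scale (adjusted p = 0.000755), while the change in the knockout was 0.17 ± 0.08 (adjusted p = 0.11). DESeq2 gave the difference of Tbx4 an adjusted p of 0.000117.

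Of 21 genes of hindlimb identity and limb initiation, 0 passed the threshold for the difference. The list median was 0.067, beside -0.0081 over all genes tested. At an unadjusted p under 0.05, 1 was higher and 1 lower (4.76% each), near the 5.15% and 5.19% of all genes. Isl1, the LIM-homeodomain gene that starts hindlimb outgrowth, had a difference of 0.25 ± 0.65 (adjusted p = 0.919). Fgf10, the mesenchymal growth factor of limb outgrowth, measured 27.4, 30.3 and 23.9 CPM in knockout E12.5 libraries, against 25.99, 23.3 and 48.7 CPM in wild-type E12.5 libraries, and 42.9, 42.6 and 56.2 CPM in knockout E11.5 libraries, against 34.2, 34.3 and 33.7 CPM in wild-type E11.5 libraries. Wild-type E12.5 replicate 3, the library with low Pitx1, was the highest of its group for Fgf10, and the difference was -0.74 ± 0.33 (adjusted p = 0.481), or -0.33 without that library. Hoxc10, a posterior Hox gene of the hindlimb, had 69.7, 39.9 and 71.7 CPM in knockout E12.5 libraries, against 41.4, 33.7 and 25.3 CPM in wild-type E12.5 libraries, and 104, 109.6 and 114 CPM in knockout E11.5 libraries, against 104, 77.7 and 121 CPM in wild-type E11.5 libraries. The genotypes overlapped at both stages and the difference was 0.75 ± 0.34 (adjusted p = 0.49). Hoxc11 had a difference of -0.11 ± 0.33 (95% interval -0.83 to 0.61). Zfp429, a zinc finger gene, was lower in every knockout library at both stages, with 0.0875, 0.163 and 0.173 CPM in knockout E12.5 libraries, against 7.15, 6.198 and 7.62 CPM in wild-type E12.5 libraries, and a difference of -3.15 ± 1.16 (adjusted p = 0.425).

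Genes of the muscle lists mostly had positive differences, of which 0 passed the threshold. Of 29 myogenic regulators and progenitor genes tested, 0 were called, 26 had a positive difference, and 16 were higher and 0 lower at an unadjusted p under 0.05, against 5.15% and 5.19% of all genes. Their median difference was 0.57, and it lay between 0.49 and 0.64 when each library was left out, with 12 to 16 genes higher at an unadjusted p under 0.05. The median knockout effect of these genes was -0.20 at E12.5, where 0 were called, and -0.68 at E11.5, where 12 were lower and 0 higher, beside 3.03% and 3.67% of all genes. Myod1 and Myog, which encode the transcription factors that commit progenitors to muscle and drive their differentiation, showed this pattern. Myod1 measured 32.4, 28.4 and 44.7 CPM in knockout E12.5 libraries, against 38.6, 47.7 and 38.2 CPM in wild-type E12.5 libraries, and 10.03, 4.903 and 8.199 CPM in knockout E11.5 libraries, against 26.6, 27.4 and 14.8 CPM in wild-type E11.5 libraries. Myog measured 66.4, 65.8 and 112 CPM in knockout E12.5 libraries, against 79.97, 106 and 90.6 CPM in wild-type E12.5 libraries, and 9.79, 4.85 and 3.95 CPM in knockout E11.5 libraries, against 33.4, 37.6 and 14.2 CPM in wild-type E11.5 libraries. For both genes the genotypes overlapped at E12.5 and did not at E11.5, wild-type E11.5 replicate 3 was the lowest of its group, and knockout E12.5 replicate 3 was the highest of its group. Both were lower in the knockout at E11.5 (-1.57 ± 0.30, adjusted p = 0.0181, for Myod1 and -2.18 ± 0.45, adjusted p = 0.027, for Myog). The differences were 1.33 ± 0.41 for Myod1 and 1.999 ± 0.60 for Myog, each with an adjusted p of 0.374.

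Pax7, a paired-box gene of muscle progenitors, measured 2.67, 2.997 and 8.26 CPM in knockout E12.5 libraries, against 3.41, 6.49 and 7.21 CPM in wild-type E12.5 libraries, and 0.393, 0.211 and 0.0934 CPM in knockout E11.5 libraries, against 2.16, 1.92 and 1.46 CPM in wild-type E11.5 libraries. It was lower in the knockout at E11.5 (adjusted p = 0.0145), the genotypes overlapped at E12.5, and the difference was 2.62 ± 0.71 (adjusted p = 0.32). Pax3, the paired-box gene of migrating progenitors, went with stage in the other direction. It fell between the stages in the knockout (-1.31 on the log2 scale, adjusted p = 0.0103) and in the wild type (-2.46, adjusted p = 0.000755), and its difference was 1.15 ± 0.50 (adjusted p = 0.465). Myf5, the earliest myogenic regulator of the somite, had a difference of 0.81 ± 0.35 (adjusted p = 0.465), and Met, the receptor that progenitors need to migrate into the limb, one of 0.60 ± 0.15 (adjusted p = 0.294). Itm2a, a membrane protein made in muscle and chondrogenic cells, measured 312, 276 and 395 CPM in knockout E12.5 libraries, against 354, 365 and 451 CPM in wild-type E12.5 libraries, and 189, 170.2 and 203 CPM in knockout E11.5 libraries, against 334, 331 and 353 CPM in wild-type E11.5 libraries. Its effect at E11.5 was -0.86 ± 0.12 (adjusted p = 0.00605) and its difference 0.60 ± 0.18 (adjusted p = 0.344).

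Of 55 sarcomere genes tested, 0 were called and 41 had a positive difference, beside 7472 of all 15324 genes. At an unadjusted p under 0.05, 13 were higher (23.6%) and 1 lower (1.8%), beside 5.15% and 5.19% of all genes. The median difference was 0.88, and it was 0.30 without knockout E12.5 replicate 3 and 0.32 without wild-type E11.5 replicate 2. The count of 13 was not firm. It was 6 without knockout E12.5 replicate 3, 8 without wild-type E12.5 replicate 1, 7 without knockout E11.5 replicate 2 or 3, and 5 and 23 without wild-type E11.5 replicates 2 and 3. With limma-voom it was 6, with the replicate block 8 and with a block within each stage 22. The knockout effect had a median of -0.93 at E12.5, with 0 called, and of -1.96 at E11.5, with 13 lower, beside 3.03% of all genes. The median level of the list, in log2 CPM, was 3.05, 3.49 and 4.15 in knockout E12.5 libraries, 4.01, 4.47 and 4.81 in wild-type E12.5 libraries, -0.41, -0.66 and -1.01 in knockout E11.5 libraries and 0.93, 2.17 and -0.21 in wild-type E11.5 libraries. These genes rose with stage in both genotypes, 48 of 55 in the knockout and 50 in the wild type, where 20.4% and 17.1% of all genes rose. Wild-type E11.5 replicate 3 was the lowest of its group in the list, and knockout E12.5 replicate 3 the highest of its group.

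**Figure D3:**
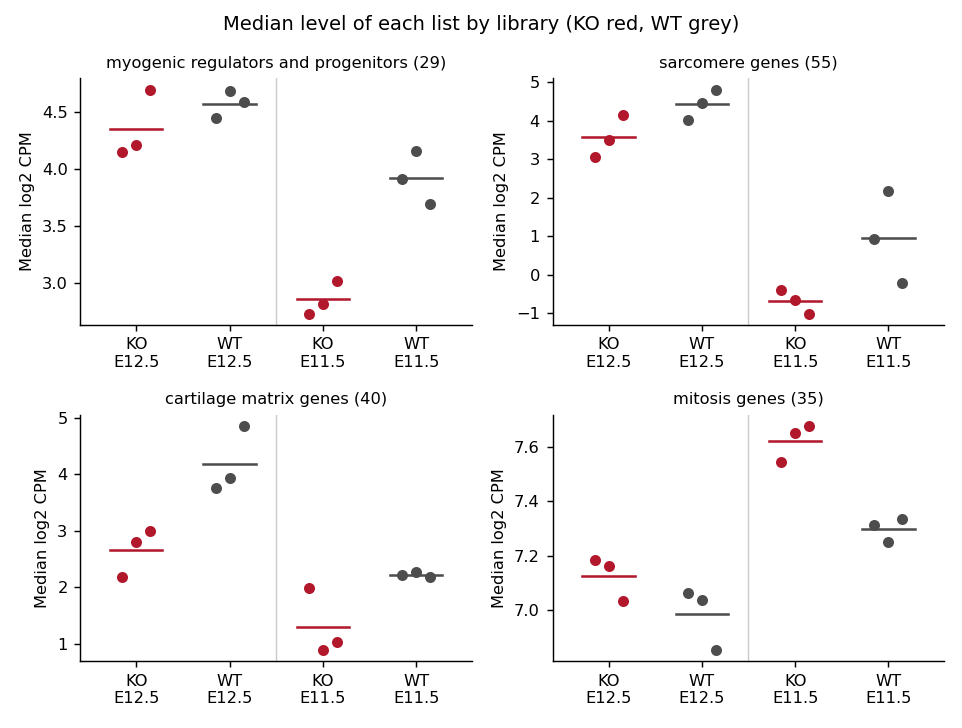
Median log2 CPM of 4 gene lists in each library, with the number of genes tested in each title; points are libraries (knockout red, wild type grey) and lines the mean of 3 libraries. The sarcomere list is highest in knockout E12.5 replicate 3 among the knockout libraries and lowest in wild-type E11.5 replicate 3 among the wild-type libraries, and the mitosis list is highest in the knockout E11.5 libraries.

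Acta2, the smooth-muscle alpha-actin that early skeletal muscle also makes, had the lowest adjusted p of the list. It measured 100.4, 102 and 172 CPM in knockout E12.5 libraries, against 122, 169 and 162 CPM in wild-type E12.5 libraries, and 9.98, 7.63 and 4.34 CPM in knockout E11.5 libraries, against 41.3, 51.7 and 38.9 CPM in wild-type E11.5 libraries. The groups overlapped at E12.5 and lay far apart at E11.5, where the effect was -2.57 ± 0.32 (adjusted p = 0.00605). The difference was 2.30 ± 0.42 (95% interval 1.35 to 3.24, adjusted p = 0.244). Actc1, the cardiac actin that is the main sarcomeric actin of embryonic skeletal muscle, measured 212, 254 and 427 CPM in knockout E12.5 libraries, against 333, 457 and 497 CPM in wild-type E12.5 libraries, and 9.57, 4.16 and 1.54 CPM in knockout E11.5 libraries, against 62.8, 92.3 and 18.2 CPM in wild-type E11.5 libraries. Its difference was 2.94 ± 0.94 (adjusted p = 0.389), and wild-type E11.5 replicate 3 lay nearest to the knockout. Myh3, embryonic myosin heavy chain, measured 79.4, 118 and 225 CPM in knockout E12.5 libraries, against 197, 298 and 330.2 CPM in wild-type E12.5 libraries, and 1.35, 2.21 and 0 CPM in knockout E11.5 libraries, against 19.9, 41.9 and 2.58 CPM in wild-type E11.5 libraries. Its groups overlapped at E12.5, and the difference of 3.12 ± 1.36 (adjusted p = 0.481) had a 95% interval of 0.026 to 6.22. Mylpf, the fast myosin light chain, differed in size from these, with lower levels in every knockout library at both stages and a difference of 0.89 ± 0.69 (adjusted p = 0.688). Tpm1, a tropomyosin that many cells besides muscle make, had a difference of -0.054 ± 0.19 (95% interval -0.46 to 0.35).

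Other muscle lists leaned the same way. Their counts at an unadjusted p under 0.05 stand beside 5.15% higher and 5.19% lower of all genes. Of 50 muscle fusion and membrane genes, 36 had a positive difference, 10 were higher and 0 lower at an unadjusted p under 0.05, and the median was 0.33 (0.12 without knockout E12.5 replicate 3, 0.16 and 0.497 without wild-type E11.5 replicates 2 and 3). The count of 10 was 5 without knockout E12.5 replicate 3 or wild-type E12.5 replicate 1, with 1 gene lower in each, 6 without knockout E11.5 replicate 3 and 4 without wild-type E11.5 replicate 2, while DESeq2 gave 16. Of 16 neuromuscular junction genes, 5 were higher and 1 lower by that measure, with a median of 0.66 (0.24 without knockout E12.5 replicate 3). The count of 5 was 2 without knockout E12.5 replicate 3, 3 without wild-type E12.5 replicate 1, knockout E11.5 replicate 2 or 3 or wild-type E11.5 replicate 1, 1 and 8 without wild-type E11.5 replicates 2 and 3, and 3 with the replicate block. The adjusted threshold was passed by 0 genes of either list. Erbb3, the neuregulin receptor, had a difference of 0.67 ± 0.25 (adjusted p = 0.417), and Agrn, the organizer of acetylcholine receptors at the synapse, one of 0.26 ± 0.20 (adjusted p = 0.672). Smooth muscle and pericyte genes other than Acta2 included Pdgfrb, the receptor of pericytes, at 0.13 ± 0.089 (adjusted p = 0.637) and Notch3 at 0.38 ± 0.16 (adjusted p = 0.44). DESeq2, run as an alternative, called 5 of 29 myogenic regulators higher (Met, Msc, Myod1, Pax7 and Vgll2). It called 2 of 55 sarcomere genes higher (Acta2 and Actn3) and 1 lower (Pdlim3). Gm7325 and Smyd1 of the fusion and membrane list and Rapsn of the neuromuscular junction list were also called higher. Of all genes, DESeq2 called 0.431% higher and 0.359% lower. Its calls were not confined to the muscle lists. In other lists it called Tbx4, Tgfb2, Wwp2 and Ndufs5 higher. There it called Twist1, Hhip, Bmp7, Panx3, Tnmd, Lsm6, Snrpb2 and Pgam1 lower.

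**Figure D4:**
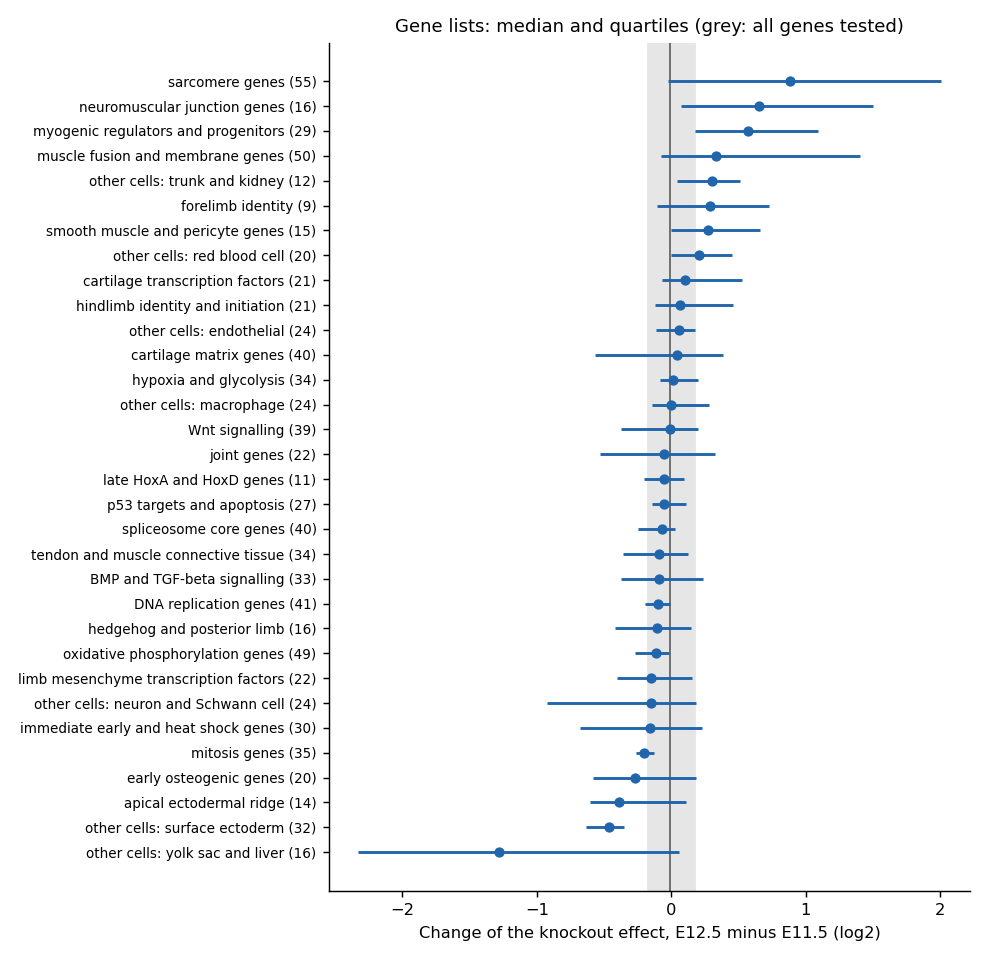
Median (point) and quartiles (line) of the difference for each gene list, with the number of genes tested in brackets and the quartiles of all genes tested in grey. The sarcomere, neuromuscular junction and myogenic lists have the most positive medians, and the yolk sac and liver list, whose median is 0.82 without wild-type E12.5 replicate 1, the most negative.

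Cartilage matrix genes were split in the direction of their differences. Over all genes, 5.15% were higher and 5.19% lower at an unadjusted p under 0.05. Of 40 cartilage matrix genes, 21 had a positive and 19 a negative difference, 1 was higher and 7 lower at an unadjusted p under 0.05, and the median was 0.04. The median was -0.20 without wild-type E11.5 replicate 2 and 0.31 without knockout E11.5 replicate 1, so its sign depended on single libraries. Without knockout E11.5 replicate 1 there were 7 higher and 4 lower genes, so the balance of the counts turned on that library too. The median knockout effect was -0.89 at E12.5 and -0.62 at E11.5, with 0 genes lower past the threshold at E12.5 and 5 at E11.5, beside 0.0587% and 3.03% of all genes. Col2a1, the type II collagen of cartilage, measured 504, 656 and 713 CPM in knockout E12.5 libraries, against 1036, 946 and 872 CPM in wild-type E12.5 libraries, and 345, 232 and 259 CPM in knockout E11.5 libraries, against 626, 683 and 492 CPM in wild-type E11.5 libraries. The knockout was below the wild type at both stages without overlap, and the difference was 0.50 ± 0.24 (95% interval -0.03 to 1.03, adjusted p = 0.497). Acan, the aggrecan core protein of later cartilage, measured 3.59, 11.2 and 15.5 CPM in knockout E12.5 libraries, against 34.7, 44.1 and 64.8 CPM in wild-type E12.5 libraries, and 0.855, 0.0703 and 0.117 CPM in knockout E11.5 libraries, against 3.52, 14.3 and 0.574 CPM in wild-type E11.5 libraries. Its wild-type E11.5 libraries spread widely and replicate 3 fell within the knockout range, so the difference of 1.82 ± 1.57 had a 95% interval of -1.75 to 5.40, and was 0.23 without wild-type E11.5 replicate 2. Hapln1, the link protein that ties aggrecan to hyaluronan, had a difference of the other sign, -1.37 ± 0.41 (adjusted p = 0.374).

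Sox9, the transcription factor of chondrocyte commitment, measured 167, 228 and 189 CPM in knockout E12.5 libraries, against 268, 206 and 146 CPM in wild-type E12.5 libraries, and 138, 100.2 and 122 CPM in knockout E11.5 libraries, against 211, 219.9 and 185 CPM in wild-type E11.5 libraries. It overlapped at E12.5, was lower in the knockout at E11.5 (-0.78 ± 0.20, adjusted p = 0.0482), and had a difference of 0.69 ± 0.29 (adjusted p = 0.46). Wwp2, the ubiquitin ligase whose gene hosts miR-140 and is a SOX9 target, had a difference of 0.81 ± 0.23 (adjusted p = 0.344), with knockout levels below the wild type at both stages. Of 21 cartilage transcription factors, 12 had a positive and 9 a negative difference, and the median was 0.10. At an unadjusted p under 0.05, 3 were higher (14.3%) and 0 lower, beside 5.15% and 5.19% of all genes. With each library left out, 1 to 6 were higher and the median ran from -0.08 to 0.37. Gdf5, the growth factor of joint interzones, measured 51.3, 62.9 and 60.9 CPM in knockout E12.5 libraries, against 112, 98.4 and 113 CPM in wild-type E12.5 libraries, and 15.3, 7.47 and 6.66 CPM in knockout E11.5 libraries, against 22.99, 34.6 and 16.7 CPM in wild-type E11.5 libraries. It lay lower in the knockout at both stages, with a difference of 0.44 ± 0.45 (adjusted p = 0.772), which was 0.12 without wild-type E11.5 replicate 2 and 0.92 without knockout E11.5 replicate 1. Runx2, the transcription factor of osteoblasts and maturing chondrocytes, also lay lower in every knockout library at both stages, and its difference was -0.13 ± 0.39 (95% interval -0.99 to 0.73). Scx, the transcription factor of tendon progenitors, had a difference of 0.16 ± 0.17 (adjusted p = 0.769). Early osteogenic genes had a median of -0.27, joint genes -0.054 and tendon and connective tissue genes -0.09, with 0 genes of these lists called. At an unadjusted p under 0.05, 2 of 20 osteogenic, 3 of 22 joint and 2 of 34 tendon genes were lower, and 0, 0 and 1 were higher. Of all genes, 5.19% were lower and 5.15% higher by that measure. The signs of the joint and tendon medians turned on single libraries: without wild-type E12.5 replicate 3 the joint median was 0.068 and the tendon median 0.13, and without wild-type E12.5 replicate 1 they were -0.15 and -0.22.

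**Figure D5:**
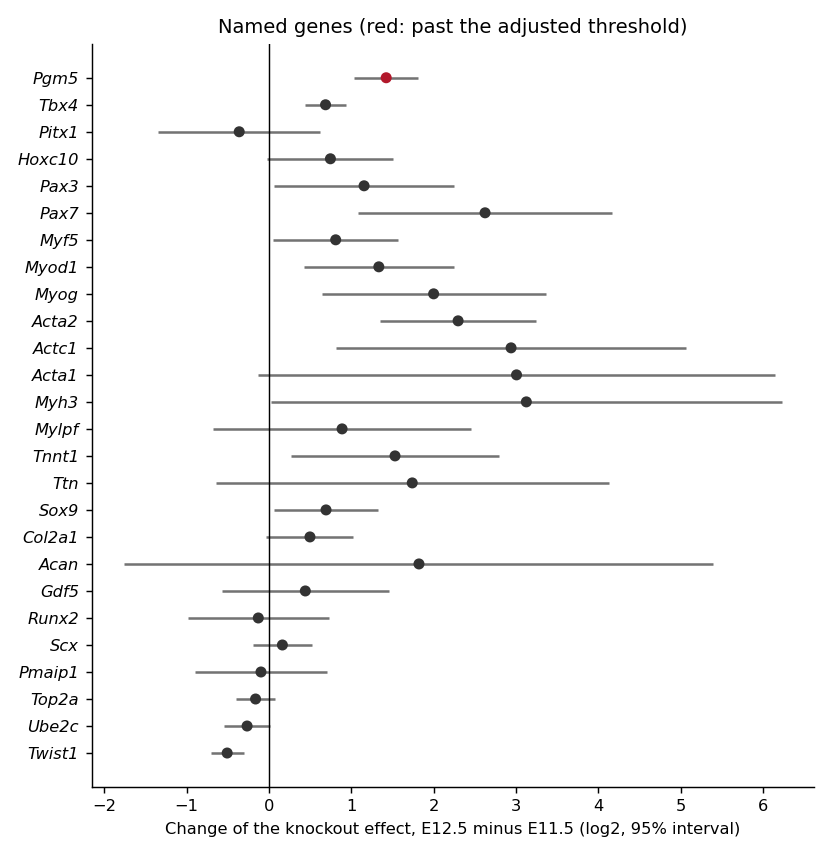
Difference of 26 named genes (point) with its 95% interval (line), in log2 units, as the knockout effect at E12.5 minus that at E11.5. Pgm5, in red, is the only gene of the plot past the adjusted threshold, and the intervals of sarcomere genes such as Acta1 and Myh3 are wide.

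In the limb patterning lists 0 genes were called. Their counts at an unadjusted p under 0.05 stand beside 5.15% higher and 5.19% lower of all genes. Of 11 late HoxA and HoxD genes, 0 were higher and 1 lower at an unadjusted p under 0.05, and the median was -0.054, or 0.073 without wild-type E12.5 replicate 1. Hoxd13, of the digit territory, had a difference of 0.073 ± 0.23 (adjusted p = 0.932). Shh, the posterior organizer, was low at E12.5 in both genotypes, at 0.262, 0.0652 and 0.0865 CPM in knockout E12.5 libraries and 0.0803, 0.0733 and 0.0246 CPM in wild-type E12.5 libraries, so its difference of 0.72 ± 1.77 carried a 95% interval of -3.19 to 4.64. Of 16 hedgehog and posterior limb genes, 0 were higher and 4 lower (25%) at an unadjusted p under 0.05. With each library left out, 2 to 5 of them were lower. Gas1, a co-receptor of hedgehog proteins, was lower in the knockout at E12.5 (-0.61 ± 0.074, adjusted p = 0.0105) and at E11.5 (-0.29 ± 0.073, adjusted p = 0.0348), with a difference of -0.32 ± 0.10 (adjusted p = 0.374). Twist1, a basic helix-loop-helix factor of limb mesenchyme, measured 155, 160.3 and 153 CPM in knockout E12.5 libraries, against 185, 187 and 199 CPM in wild-type E12.5 libraries, and 196, 224 and 204 CPM in knockout E11.5 libraries, against 186, 166 and 184 CPM in wild-type E11.5 libraries. Its knockout libraries lay below the wild type at E12.5 and above it at E11.5 without overlap, and the difference of -0.51 ± 0.093 had an adjusted p of 0.205. Of 22 limb mesenchyme transcription factors, 2 were higher and 4 lower (18.2%) at an unadjusted p under 0.05. With each library left out, 3 to 6 of them were lower. Fgf8, the growth factor of the apical ectodermal ridge, had a difference of 0.26 ± 0.55 (95% interval -0.94 to 1.45), and the ridge list of 14 genes had a median of -0.39 with 1 higher and 3 lower at an unadjusted p under 0.05. Among 33 BMP and TGF-beta genes 2 were higher and 6 lower by that measure, and Id1, a target of BMP signalling, had a difference of -0.43 ± 0.41 (adjusted p = 0.749). Among 39 Wnt genes 2 were higher and 3 lower, and Wnt5a, which directs limb outgrowth, had a difference of -0.09 ± 0.19 (95% interval -0.51 to 0.33). With each library left out, 0 to 2 ridge genes were higher and 1 to 6 lower. Those counts were 1 to 7 and 3 to 8 for BMP and TGF-beta genes, and 2 to 6 and 2 to 8 for Wnt genes. Without knockout E11.5 replicate 1, 7 BMP and TGF-beta genes were higher and 6 lower, so the balance turned on that library.

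Genes of cell division mostly had negative differences. Of 35 mitosis genes, 34 had a negative difference, beside 7852 of all 15324 genes, and 0 passed the adjusted threshold. At an unadjusted p under 0.05, 13 were lower (37.1%) and 0 higher, beside 5.19% and 5.15% of all genes. The median difference was -0.20, between -0.25 and -0.16 when each library was left out, and 8 genes were lower at that unadjusted p without wild-type E12.5 replicate 1. The knockout effect had a median of 0.16 at E12.5, with 0 called, and 0.35 at E11.5, with 27 of 35 higher, where 3.67% of all genes were higher. Top2a, the topoisomerase of dividing cells, measured 1002, 1009 and 939.5 CPM in knockout E12.5 libraries, against 923, 860.2 and 747 CPM in wild-type E12.5 libraries, and 1448, 1369.7 and 1525 CPM in knockout E11.5 libraries, against 1081, 1079 and 1168 CPM in wild-type E11.5 libraries. Every knockout library lay above the wild type at both stages, and the difference of -0.16 ± 0.11 had an adjusted p of 0.633. Birc5, the survivin of the chromosomal passenger complex, had a difference of -0.26 ± 0.10 (adjusted p = 0.417), and Ube2c, the ubiquitin-conjugating enzyme of the anaphase-promoting complex, one of -0.26 ± 0.13 (adjusted p = 0.494). DNA replication genes had a median of -0.10, with 3 of 41 lower (7.3%) and 0 higher at an unadjusted p under 0.05. That share was near the 5.19% of all genes that were lower. When each library was left out, 0 to 8 DNA replication genes were lower. Spliceosome core genes had 6 of 40 lower (15%) and 0 higher by that measure, and oxidative phosphorylation genes 8 of 49 lower (16.3%) and 1 higher. Those 2 lower counts were 5 to 11 and 5 to 13 when each library was left out.

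Pmaip1, the p53 target that encodes the cell death protein NOXA, measured 63.2, 59.04 and 39.9 CPM in knockout E12.5 libraries, against 38.04, 29.7 and 16.6 CPM in wild-type E12.5 libraries, and 296, 329.8 and 333 CPM in knockout E11.5 libraries, against 158, 144 and 159.8 CPM in wild-type E11.5 libraries. It was above the wild type in every knockout library at both stages, and its difference was -0.10 ± 0.36 (95% interval -0.90 to 0.71). The list of 27 p53 targets and apoptosis genes had a median of -0.056, with 2 higher and 3 lower at an unadjusted p under 0.05. Of all genes, 5.15% were higher and 5.19% lower. For 34 hypoxia and glycolysis genes the median was 0.011, with 6 higher (17.6%) and 2 lower by that measure. For 30 immediate early and heat shock genes, which respond to handling of tissue, it was -0.16, with 1 higher and 5 lower (16.7%). With each library left out, 3 to 6 of the former were higher and 2 to 7 of the latter lower.

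Markers of other cells in the limb were set beside these results. Surface ectoderm markers had a negative difference in 30 of 32 genes and a median of -0.46. At an unadjusted p under 0.05, 5.15% of all genes were higher and 5.19% lower, and of these markers 1 was higher and 7 lower (21.9%). Without wild-type E12.5 replicate 1, 17 of them were lower by that measure. Their summed level was 883 to 1066 CPM in knockout E12.5 libraries, 806 to 1458 CPM in wild-type E12.5 libraries, 732 to 827 CPM in knockout E11.5 libraries and 591 to 705 CPM in wild-type E11.5 libraries, so the genotypes overlapped at E12.5 and not at E11.5. Krt14, the keratin of basal epidermis, had a difference of -0.49 ± 0.41 (adjusted p = 0.705). Macrophage markers had a median difference of 0.00051 and summed to 151 to 186 CPM in knockout E12.5 libraries, 198 to 239.5 CPM in wild-type E12.5 libraries, 108 to 121 CPM in knockout E11.5 libraries and 127 to 151 CPM in wild-type E11.5 libraries, lower in every knockout library of each stage. Endothelial markers had a median of 0.059 and red blood cell markers one of 0.21, with 0 genes of these 3 lists below an unadjusted p of 0.05. Red blood cell markers summed to 4086 to 7864 CPM in knockout E12.5 libraries, 3110.4 to 7843 CPM in wild-type E12.5 libraries, 5312 to 10226 CPM in knockout E11.5 libraries and 5341 to 12371 CPM in wild-type E11.5 libraries, which overlap at both stages. Neuron and Schwann cell markers had a median of -0.15, and trunk and kidney markers one of 0.30. At an unadjusted p under 0.05, 1 of 24 neuron and Schwann cell markers was higher and 4 were lower (16.7%). With each library left out, 1 to 5 of them were lower. Yolk sac and liver markers had a median of -1.28, and 0.82 without wild-type E12.5 replicate 1, in which they summed to 897 CPM, against 13.6 to 78.6 CPM in the other E12.5 libraries. The part of any of these cells in the results was not tested.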

How the data were processed

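Per the labels' protocols, a stranded TruSeq mRNA kit was used and sequencing ran on a NextSeq. FastQC, TopHat2 and Cuffdiff were used on build mm9, per the submitters' processing notes. Their versions, the annotation and the strand setting were not given in the sources used here. For every stage there is a table of 23929 genes. The deposited raw fragments are estimated counts per the file headers; 1.82% were not whole, and all were rounded before testing. The deposited RPKM values, normalized by the authors per kilobase and library within each table, were used only to choose genes and never tested across stages. Replicates are numbered from 0 in the tables and were taken as 1 to 3. Spreadsheet date names affected 25 entries, of which 2 ambiguous ones were dropped, as were 6 genes that Cuffdiff failed to estimate and that had 0 fragments.

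The 12 libraries were fitted with edgeR 4.0.16 (R 4.3.3) as 4 group means: TMM scaling, filterByExpr, robust dispersions, quasi-likelihood F test, Benjamini-Hochberg adjustment over 15324 genes and a threshold of 0.05. The difference is an interaction contrast; SEs come from the F statistic. Alternatives included limma 3.58.1 (voom) and DESeq2 1.42.0. The fit was also run on simulated counts drawn independently per gene and library, with known changes placed only in the knockout E12.5 group. That simulation held no outlying libraries, and no conclusion is drawn from it. Replicates differed by more than sampling noise in every pair (chi-square per degree of freedom at least 9.11). Members and lists were chosen with earlier results of these data known. Named are 26 fixed genes, genes past the threshold, and, of lists with fewer than 2 such genes, the 3 members highest in RPKM; genes outside this rule that a sentence names by rank, by their place in a list or as called by another tool were chosen after their values were seen. Medians and counts describe a list and are no test of it. A result on a further gene is not reported here.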

Additional observations from a re-analysis of the deposited data

Results flagged for a closer look

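Pgm5 had a knockout effect that differed between the 2 stages in a test of the difference itself: 1.42 on the log2 scale (E12.5 effect minus E11.5 effect, SE 0.18, adjusted p = 0.0357, edgeR). The call was lost in 8 of 12 fits that each left out 1 library, with an adjusted p of 0.0508 to 0.218 in those 8.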

How the results depend on the processing

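The difference called 1 gene higher and 0 lower with RLE size factors, upper-quartile scaling, a minimum mean of 50 counts and both replicate blocks. It called 66 higher and 55 lower with DESeq2, 2 higher without a filter, 3 higher and 1 lower at an adjusted p under 0.10, and 0 with limma-voom, without the robust step, with all 18 libraries or against a 1.5-fold difference. Leaving out a library gave 0 to 5 higher and 0 to 1 lower. At E12.5 the knockout effect had 91 higher and 209 lower with DESeq2, 2 higher with limma-voom, 3 higher with the mean of 50 counts, 3 and 20 with all 18 libraries, 0 and 2 in a fit of the stage alone, and 0 to 11 higher and 1 to 51 lower with a library left out. At E11.5 it had 1084 and 986 with DESeq2, 304 lower with all 18 libraries, 138 and 148 in a fit of the stage alone, and 45 to 846 higher and 40 to 742 lower with a library left out. The cause of these shifts was not tested. Correlations of same-numbered libraries were -0.42 to 0.286. With 3 libraries a group they cannot decide whether replicate numbers pair the samples. With the replicate block, Pgm5 had an adjusted p of 0.0154, and counts were 252 and 247 at E11.5 and 1 higher at E12.5. A replicate block within each stage, added after seeing the data, gave 12 and 59 at E12.5 and an adjusted p of 0.0418 for Pgm5. Signs were compared for the differences of 124 named genes, and none that the main fit or the alternative called changed sign. The main fit called only Pgm5, so this comparison is no check of the genes that neither fit called. Values that neither fit called changed sign in 91 cases, beside 2848 comparisons of named genes that were labelled as the same. Signs of the knockout effects at each stage were not compared. With 3 libraries a group and depths from 22361170 fragments, intervals of low genes are wide.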
